A study of Mus musculus with 5 samples.

Results

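The enzymes of purine synthesis were followed in lenses of mice with Cre and floxed alleles of Yap1, the gene of a transcriptional co-activator in the Hippo pathway. All 9 members (Ppat, Gart, Pfas, Paics, Adsl, Atic, Impdh1, Impdh2 and Gmps) were found by symbol among the 22183 genes of the deposited table, and all 9 passed the filter on low counts, which 11724 genes passed. The set was chosen from measured values of these same libraries. Paics was picked by its high abundance and its lower level in cKO, and the other 8 genes were added as its pathway. The comparison of cKO with Ctrl is therefore a description for Paics, with no p-value, and its share of any count below is no independent evidence.

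The cKO group (2 libraries, cKO 1 and cKO 2) was taken at postnatal day 14 from mice with Cre and floxed Yap1 alleles, either Yap1f/f;Cre or, with 1 floxed allele, Yap1f/+;Cre. Lenses of both genotypes were picked by a severe eye phenotype, with small eyes and a closed pupillary membrane. The Ctrl group (3 libraries, Ctrl 1 to 3) came from littermates of the same age with floxed alleles (Yap1f/f or Yap1f/+) and a normal eye, entered as WT in the genotype field. Each library pooled 4 to 6 whole lenses, and poly(A) RNA was sequenced. The labels used here do not name the driver of Cre. In whole lenses fewer cells of a type and less RNA per cell cannot be told apart.

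Purine nucleotides such as ATP and GTP carry energy and signals and build nucleic acids. Cells make them anew from phosphoribosyl pyrophosphate (PRPP), glutamine, glycine, aspartate, carbon dioxide and folate-bound formyl groups, by a chain of enzymes that ends in inosine monophosphate (IMP). IMP is then turned into AMP or, through IMP dehydrogenase and GMP synthetase, into GMP. Cells can also recover ready-made bases by salvage enzymes, which cost less energy. In mammals several enzymes of the chain are fused into proteins with more than 1 activity, Paics among them. The lens is a tissue with no blood supply of its own, whose mature fibre cells have lost their nuclei.

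Paics and Ppat are neighbours on chromosome 5 and are transcribed in opposite directions from overlapping starts. In the RefSeq promoter table (GRCm38.p6, which is not the GRCm39 build of the counts), the Paics start lies on the plus strand and the Ppat start on the minus strand, and their first 277 bases cover the same stretch of DNA. Promoter windows, from 250 bases before to 50 after a start, were at hand for 8 of the 9 members, in 9 windows because Impdh1 has a pair of starts. Pfas has none in the table. The E-box CACGTG, a motif bound by MYC and its relatives, was searched on both strands and stood in 3 of the 9 windows, those of Paics, Impdh2 and Atic, and in 7.15% of all 32851 windows. The windows of Ppat, Gart, Adsl, Gmps and Impdh1 hold no such letters. The core GCGCANGCG, part of the motif of nuclear respiratory factor 1, stood in the Ppat window alone of the 9 and in 6.25% of all windows. The windows of the neighbours Paics and Ppat differ in these motifs, but their starts overlap. The Paics E-box lies downstream of the Ppat start and the NRF1 core downstream of the Paics start, each outside the other gene's window. The windows thus do not assign either motif to a single gene of the pair. Stretches of 30 bases around these matches are shown with the motif in capitals, 5′ to 3′ on the strand of the gene.
Paics, chr5:76951087-76951116, plus strand, E-box: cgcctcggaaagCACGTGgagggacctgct
Ppat, chr5:76951601-76951630, minus strand, NRF1 core: gcttcccgccGCGCAGGCGcgctgacgcga
Impdh2, chr9:108560314-108560343, plus strand, E-box: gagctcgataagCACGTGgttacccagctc
Atic, chr1:71557137-71557166, plus strand, E-box: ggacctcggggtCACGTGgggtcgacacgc
The E-box began 203 bases before the start of Paics, 110 before that of Impdh2 and 7 before that of Atic, and the NRF1 core began 42 bases before the start of Ppat. The GC box GGGCGG stood in 9 of 9 windows and in 35.7% of all, and the CCAAT box (letters CCAAT) in 4 of 9, those of Paics, Impdh2, Atic and Gart, and in 37.4% of all. The letters TGATGNAAN, from the composite element bound by ATF4, stood in 0 of 9 and in 3.95% of all. A match describes letters and is not evidence of binding. The log2 fold changes (cKO over Ctrl) of the 3 members with an E-box were −1.60 for Paics, −0.59 for Impdh2 and −0.36 for Atic. Atic was rare, with a standard error of 0.56. A link between the motif and level or change was not tested.

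The libraries held 22047553 to 25762805 counts. Fewer genes had a count in the cKO libraries (12602 and 12028) than in the Ctrl libraries (13972 to 14199), and log2 abundances correlated less between cKO 1 and cKO 2 (Pearson r across genes 0.871) than between Ctrl libraries (0.962 to 0.978). Yap1 itself had 92 and 61 counts in cKO 1 and 2, against 155, 133 and 143 in Ctrl 1, 2 and 3, and its log2 fold change of −1.08 (standard error, SE, 0.33) did not pass the threshold (edgeR adjusted p = 0.0759). The Y-linked gene Ddx3y had 0 counts in both cKO libraries and 656 to 854 in Ctrl, so that sex and genotype cannot be told apart here. Of the 11724 genes tested, 13.5% were called at an adjusted p under 0.05, with 5.76% higher and 7.73% lower in cKO. With total counts in place of TMM, 1234 genes were higher and 717 lower, where TMM gave 675 and 906. Leaving out any 1 Ctrl library cut the 1581 calls to between 21 and 82.

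Paics (ENSMUSG00000029247), which encodes a protein that both carboxylates the forming purine ring and joins aspartate to it, had by far the highest FPKM of the enzymes in all 5 libraries. It had 314 and 194 CPM (counts scaled to library size, with TMM factors) in cKO 1 and 2, against 737, 794 and 769 CPM in Ctrl 1, 2 and 3. The highest cKO library lay at 0.426 of the lowest Ctrl library, so the groups were far from overlapping, and the Ctrl libraries were tightly grouped while cKO 1 stood at 1.62 times cKO 2. The log2 fold change was −1.60 (SE 0.23), and the mean of cKO was 0.331 of the Ctrl mean. By FPKM (fragments per kilobase of transcript, scaled to sequencing depth), the authors' own scale, which takes gene length into account, Paics ranked 220 and 339 among all genes in cKO 1 and 2, against 66, 58 and 60 in Ctrl 1, 2 and 3.

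**Figure D1:**
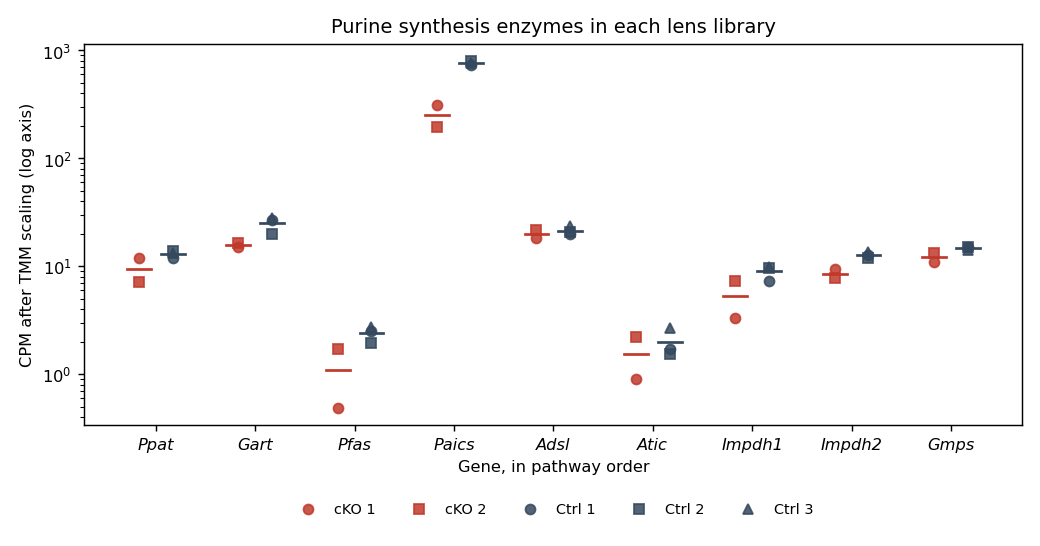
CPM after TMM scaling (log axis) of the 9 enzymes in pathway order, with cKO libraries in red left of Ctrl libraries in blue; a point is 1 library and a line is the group mean. Paics, at 194 and 314 CPM in cKO and 737 to 794 CPM in Ctrl, has its groups widely apart, while Pfas, Atic and Impdh1 are spread widest between cKO 1 and cKO 2.

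Ppat (ENSMUSG00000029246) encodes the amidotransferase that commits PRPP to the pathway and is held back by its end products. Ppat had 11.9 and 7.19 CPM in cKO 1 and 2, against 12, 14 and 13.2 CPM in Ctrl 1, 2 and 3. Only cKO 2 stood clearly below the Ctrl libraries, since cKO 1 reached 0.992 of the lowest of them, and the log2 fold change of −0.45 (SE 0.26) did not pass (edgeR adjusted p = 0.283). Without cKO 1 the change was −0.87 and did pass (edgeR adjusted p = 0.0122), in a fit that called 37.8% of all genes, whereas without cKO 2 it was −0.13.

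The ratio of the neighbours within a library does not depend on how libraries are scaled. Paics FPKM was 49.6 and 50.4 times Ppat FPKM in cKO 1 and 2, against 119, 109 and 111 times in Ctrl 1, 2 and 3. The cKO libraries, which differed from each other in the level of both genes, thus had almost the same ratio, below that of each Ctrl library. This ratio rests on the lower Paics values that chose the set and is given without a test. Because the genes overlap on opposite strands and the use of strand is not given, reads of the shared stretch could have been counted for either gene. The expected counts of Paics and Ppat were whole numbers in 4 of 5 libraries. In cKO 1 they were 7678.96 and 292.04, the fractions adding up to a whole count, and the effect of shared reads on either gene was not tested.

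**Figure D2:**
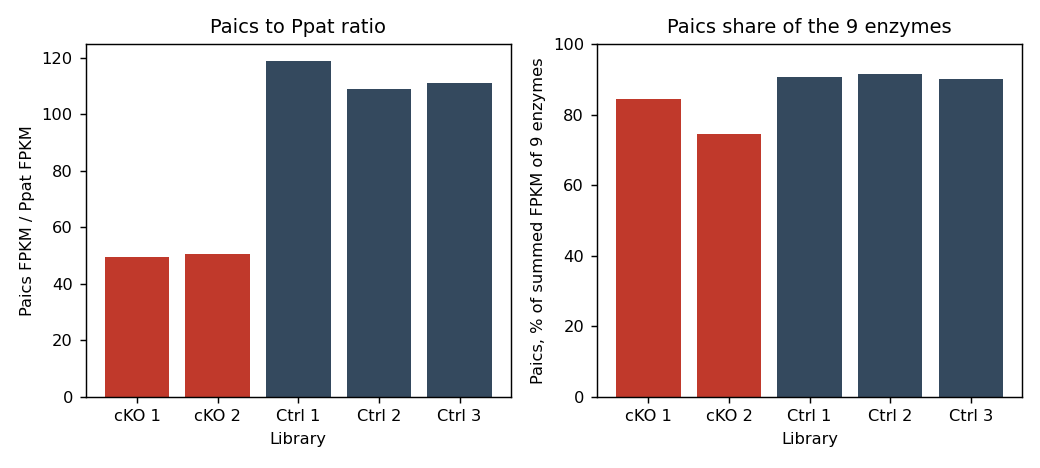
Left, the ratio of Paics FPKM to Ppat FPKM in each library; right, Paics as a percentage of the summed FPKM of the 9 enzymes, with cKO in red and Ctrl in blue. The ratio is 49.6 and 50.4 in cKO and 109 to 119 in Ctrl, and the share is 84.4% and 74.6% in cKO and 90.1 to 91.5% in Ctrl.

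Paics made up 84.4% and 74.6% of the summed FPKM of the 9 members in cKO 1 and 2, against 90.7%, 91.5% and 90.1% in Ctrl 1, 2 and 3. Its FPKM was 5.4 and 2.94 times that of the other 8 together in cKO, against 9.78, 10.7 and 9.09 times in Ctrl. The other 8 summed to 27.8 and 36.6 FPKM in cKO 1 and 2, against 32.7, 33.2 and 41.2 FPKM in Ctrl 1, 2 and 3. On this scale the sum of the other 8 overlapped between the groups, while Paics and, among the 8, Impdh2 did not.

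On the FPKM scale, Adsl came next after Paics in the Ctrl group, with 11.3 ± 1.27 FPKM (SD, n = 3). Gart had 8.01 ± 1.79 and Impdh2 had 7.03 ± 0.992 FPKM, levels that did not differ beyond their spread. Impdh1 at 3.54 ± 0.804 and Ppat at 3.1 ± 0.37 FPKM also overlapped. Gmps followed at 1.72 ± 0.0405 FPKM, and Atic (0.668 ± 0.249) and Pfas (0.356 ± 0.0737) came last. Paics itself stood at 350 ± 28.1 FPKM, so that enzymes acting within a few steps of each other, Pfas and Paics, stood at opposite ends of the range. In cKO (n = 2) the means were highest for Paics at 129 ± 29.7, Adsl at 12.6 ± 3.2, Gart at 6.16 ± 1.7 and Impdh2 at 5.83 ± 0.448 FPKM, though Impdh2 was above Gart in cKO 1.

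Gart and Pfas act between Ppat and Paics. Gart (ENSMUSG00000022962), a protein that carries out several early steps including a formyl transfer from folate, had 15 and 16.6 CPM in cKO 1 and 2, against 27.0, 20.1 and 27.9 CPM in Ctrl 1, 2 and 3. Both cKO libraries were below all Ctrl libraries by CPM, but cKO 2 and Ctrl 2 crossed by FPKM (7.361 against 6.194). The log2 fold change of −0.66 (SE 0.20) missed the threshold (edgeR adjusted p = 0.0743) and passed with DESeq2 (−0.65, DESeq2 adjusted p = 0.0385). Pfas (ENSMUSG00000020899), which brings in nitrogen from glutamine, was rare, with 12 and 46 counts in cKO 1 and 2, against 54, 40 and 71 in Ctrl 1, 2 and 3. Its log2 fold change was −1.11 (SE 0.62, edgeR adjusted p = 0.267), and cKO 2 had 3.5 times the CPM of cKO 1, more than the change between the groups. Without cKO 2, where 41.6% of all genes were called, its change of −2.28 passed (edgeR adjusted p = 0.00786).

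Adsl and Atic finish the chain to IMP. Adsl (ENSMUSG00000022407), the lyase that releases fumarate and serves also in the AMP branch, stood at 18.3 and 21.9 CPM in cKO 1 and 2, against 20.1, 20.8 and 23.5 CPM in Ctrl 1, 2 and 3. The groups overlapped, and its log2 fold change of −0.09, with an SE of 0.17 (edgeR adjusted p = 0.743), turned to 0.13 with total-count scaling. Adsl acts directly after Paics, and its level per length was 10.322 and 14.854 FPKM in cKO, against 10.099, 11.179 and 12.633 FPKM in Ctrl. Atic (ENSMUSG00000026192), which adds the last formyl group and closes the ring, had 22 and 59 counts in cKO, against 37, 32 and 70 in Ctrl. Its groups overlapped, at −0.36 on the log2 scale with an SE of 0.56 (edgeR adjusted p = 0.704), and cKO 2 had 2.45 times the CPM of cKO 1.

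The GMP branch opens with the IMP dehydrogenases, the rate-limiting enzymes of guanine nucleotide synthesis. Impdh2 (ENSMUSG00000062867), the form known for dividing cells, had 9.39 and 7.75 CPM in cKO 1 and 2, against 12.8, 12.1 and 13.7 CPM in Ctrl 1, 2 and 3. Both cKO libraries lay below all Ctrl libraries, by FPKM as well, but the log2 fold change of −0.59 (SE 0.19) did not pass (edgeR adjusted p = 0.0912). Impdh1 (ENSMUSG00000003500), the form known from resting tissues and from photoreceptors, had 3.35 and 7.3 CPM in cKO, against 7.33, 9.71 and 9.98 CPM in Ctrl. Here cKO 1 alone stood low, cKO 2 almost touched Ctrl 1 (a ratio of 0.996), and the log2 fold change of −0.76 (SE 0.37) did not pass (edgeR adjusted p = 0.221). Without cKO 2 the Impdh1 change was −1.43 and passed (edgeR adjusted p = 0.00552).

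The balance of the dehydrogenase forms varied within groups as much as between them. Impdh2 FPKM was 4.0 and 1.56 times Impdh1 FPKM in cKO 1 and 2, against 2.53, 1.65 and 1.95 times in Ctrl 1, 2 and 3. The summed CPM of 10 genes of photoreceptors and other retinal neurons was 10.3 and 2.31 in cKO 1 and 2, against 55.8, 14.3 and 3.22 in Ctrl 1, 2 and 3. Its part in the Impdh1 values was not tested. Gmps (ENSMUSG00000027823), the glutamine-using enzyme that makes GMP, had 11.1 and 13.2 CPM in cKO, against 15.2, 15 and 14.1 CPM in Ctrl. Its log2 fold change was −0.28 (SE 0.17, edgeR adjusted p = 0.318).

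Counted over the family, 1 of 9 members, Paics, was called lower and 0 were called higher, beside the shares of 7.73% and 5.76% of all genes given above. By edgeR 8 members did not pass, and by DESeq2, which called 23.3% of all genes, 7 did not. All 9 log2 fold changes were negative with TMM scaling, with a median of −0.59 and of −0.52 without Paics, beside −0.06 over all genes tested. With total counts in place of TMM, which raised the median of all genes by 0.22, Adsl turned positive and the family median was −0.39. In 7 of 9 members every cKO library was below every Ctrl library by CPM, which also held for 28.7% of all genes tested. The same held for 2 of 9 members (Paics and Impdh2) by the deposited FPKM, beside 20.4% of all genes tested, and for 2 of 9 with total counts, beside 21.2%.

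**Figure D3:**
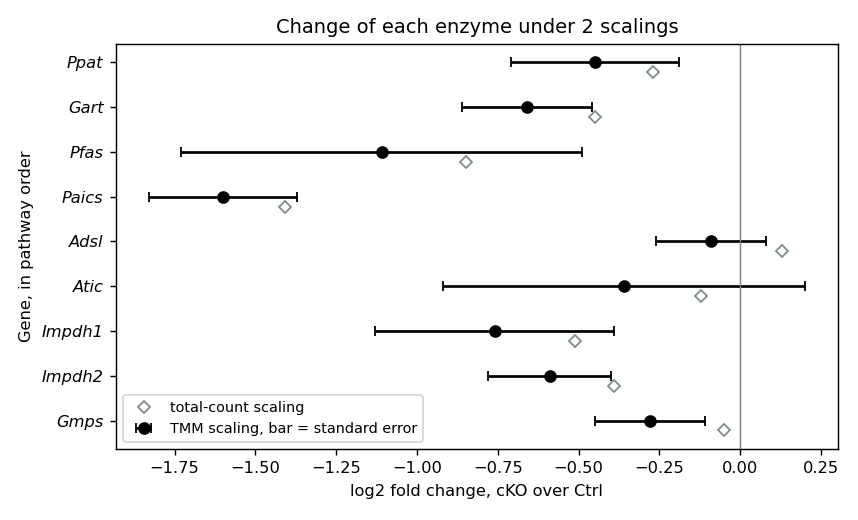
Log2 fold change of cKO over Ctrl for the 9 enzymes in pathway order, with TMM scaling (black, bars are standard errors) and with total counts (open diamonds). Paics lies at −1.60, the other 8 between −1.11 and −0.09 with TMM scaling, and all shift to the right with total counts, where Adsl is at 0.13.

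Members differed in which cKO library was lower. Pfas, Atic and Impdh1 were lower in cKO 1, where they had 0.286, 0.409 and 0.459 of their CPM in cKO 2. Ppat and Paics were the other way round, at 1.66 and 1.62 times their cKO 2 level, while Gart, Adsl, Gmps and Impdh2 stood between 0.837 and 1.21. Among Ctrl libraries no member spanned more than 1.72 times, the value of Atic. With 1 library of each kind no test of this difference between the cKO pools is possible.

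The number of members called hung on single libraries, as did the calls over all genes. Paics kept changes of −1.59, −1.57 and −1.55 without Ctrl 1, 2 and 3. These fits called 65, 21 and 82 of 11488, 11558 and 11495 genes tested. The number of members called in them was 0 of 9. It was 3 of 9 without cKO 1 (Paics, Ppat and Impdh2), beside 37.8% of all genes, and 4 of 9 without cKO 2 (Paics, Gart, Impdh1 and Pfas), beside 41.6% of all genes, shares near those backgrounds. These are fits in which a single cKO library has to borrow its spread from Ctrl.

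Markers of cell types that could carry these enzymes also differed between the groups, and their part in the values above was not tested. Of all genes tested, 7.73% were called lower and 5.76% higher. Of 16 proliferation markers, all of them tested, 8 were lower and 0 higher. Their summed levels were 27.4 and 20.6 CPM in cKO and 56.3 to 80.5 CPM in Ctrl, and 2 were at 0 in both cKO libraries. Top2a, Mcm3, Plk1 and Bub1, among the lower ones, had 0 to 5 counts in each cKO library. They passed the filter through Ctrl, so the share called lower is partly set by the filter. The other 8 did not pass, among them Pcna (−0.04) and Mki67 (−0.58), whose groups overlapped. Of 14 tested lens epithelium markers 6 were lower. Cdh1 and Mab21l2 among them had 0 or 1 counts in each cKO library and passed the filter through Ctrl. The list summed to 1370 and 2680 CPM in cKO and 2180 to 2420 CPM in Ctrl, but Dkk3 and Sfrp1, neither of them called, made up 85.2% and 91.8% of the sum in cKO and 78.4 to 84.4% in Ctrl. Without this pair the sum was 204 and 221 CPM in cKO, against 472, 379 and 408 CPM in Ctrl. Of 15 macrophage markers 10 were tested, and 9 of these were higher. The list summed to 152 and 38.7 CPM in cKO and 1.81 to 3.76 CPM in Ctrl. With so few counts in Ctrl, a marker passed the filter through its cKO counts, so the share called is partly set by the filter. Adgre1, Itgam, Mrc1, Cd14 and Fcgr1 were not tested. They had 38, 21, 178, 99 and 0 counts in cKO 1, against 0, 1, 8, 6 and 0 in cKO 2. Fibre markers summed to 466000 and 404000 CPM in cKO and 430000 to 497000 CPM in Ctrl. Much of this sum came from Cryaa (151000 and 168000 CPM in cKO) and Cryba1 (151000 and 102000 CPM in cKO), neither of them called. Of the 15 fibre markers 3 were lower, 0 higher and 12 not called. The lower ones, Cryga, Lgsn and Bfsp1, had cKO means at 0.0566, 0.0544 and 0.396 of Ctrl by CPM. By edgeR 0 of 7 endothelial, 4 red blood cell, 6 retinal and 3 iris or pigment markers tested were called. Of them 4, 0, 1 and 2 had an edgeR unadjusted p under 0.05, beside 3781 of all 11724 genes tested. DESeq2 called 2, 0, 1 and 1, beside 23.3% of all genes.

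In the pathways that feed purine synthesis, or run beside it, the share of called genes was near that of all genes. Over 9 lists chosen by function, 14 of 94 tested genes were called (14.9%, beside 13.5% of all genes), 8 higher and 6 lower. Leaving out any 1 Ctrl library left 0 of these calls, in fits that called 21 to 82 genes in all. In the wider group of 137 genes that the file assigns to KEGG purine metabolism, which includes the 9 members, 93 were tested, 7 were higher and 6 lower.

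Of 6 tested salvage genes, which run beside the synthesis chain, 2 were higher and 0 lower. Aprt, which recovers adenine, had 39.4 and 33.6 CPM in cKO 1 and 2, against 17.8, 15.2 and 15.8 CPM in Ctrl 1, 2 and 3, and rose by 1.16 in log2 units, with an SE of 0.16 (edgeR adjusted p = 0.0135). Hprt, which recovers hypoxanthine and guanine to IMP and GMP, had 44.1 and 32.1 CPM in cKO, against 22.5, 20.8 and 22.9 CPM in Ctrl, and rose by 0.79 (SE 0.18, edgeR adjusted p = 0.0388). Neither gene's groups overlapped. The share of all genes with cKO wholly above Ctrl is not given here, and the reverse held for 28.7% of all genes tested. The X-linked Hprt was measured in pools that also differ in Y-linked RNA. The other 4 of the 6 salvage genes (list median 0.31, beside −0.06 over all genes) did not pass, among them Mtap, which recovers adenine from methylthioadenosine and had 11.2 and 32.4 CPM in cKO, against 33.8, 27.6 and 34.9 CPM in Ctrl.

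Among 7 tested genes of PRPP supply and the adenylosuccinate step (median 0.26), edgeR called 0. An edgeR unadjusted p under 0.05 was found for 1, beside 3781 of all 11724 genes tested. DESeq2 called 1, beside 23.3% of all genes. The synthetase Prps1 had 42.3 and 34.5 CPM in cKO, against 29.6, 32.9 and 33.8 CPM in Ctrl (log2 fold change 0.26, SE 0.16, edgeR adjusted p = 0.306). Its associated protein gene Prpsap1 had a change of 0.49 (SE 0.14, edgeR adjusted p = 0.0685), which passed with total counts (0.70, edgeR adjusted p = 0.03). In the pentose phosphate pathway, which makes ribose phosphate for PRPP, 1 of 6 tested genes (median 0.02) was lower. This was Tkt, the gene of transketolase, which had 71.4 and 81.2 CPM in cKO, against 157, 145 and 174 CPM in Ctrl, and fell by 1.06 (SE 0.15, edgeR adjusted p = 0.0148). Its partner Taldo1 was at 34.6 and 35.2 CPM in cKO and between 31.0 and 39.2 CPM in Ctrl (0.01, edgeR adjusted p = 0.988).

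Genes of serine and folate metabolism, the source of formyl groups, were split. Of 20 tested (median 0.00), 2 were higher and 1 lower. Psat1, of serine synthesis, had 112 and 100 CPM in cKO, against 51.2, 51.7 and 58.4 CPM in Ctrl, and rose by 0.98 (SE 0.14, edgeR adjusted p = 0.014). Aldh1l2, a mitochondrial enzyme that consumes formyl-tetrahydrofolate, rose by 3.6 (SE 0.62, edgeR adjusted p = 0.0218), with 325 and 108 counts in cKO 1 and 2, against 15, 21 and 11 in Ctrl. Shmt1, the cytosolic serine hydroxymethyltransferase, was lower, with 1 and 2 counts in cKO, against 15, 13 and 34 in Ctrl (edgeR adjusted p = 0.0437). It passed the filter through its Ctrl counts. The ratio of Ctrl over cKO was 15.6, with an exact 95% counting interval of 5.09 to 77.6, and its call was lost without the count filter (edgeR adjusted p = 0.0655). Phgdh, the entry enzyme of serine synthesis, had 97.8 and 67.8 CPM in cKO, against 111, 101 and 116 CPM in Ctrl, and did not pass (−0.40, edgeR adjusted p = 0.209).

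Among 9 tested genes of glutamine and aspartate supply (median 0.52), 2 were higher and 0 lower. Asns, which makes asparagine and uses glutamine, rose by 2.73 (SE 0.32, edgeR adjusted p = 0.00957), with 131 and 59.6 CPM in cKO, against 14.3, 14.8 and 14 CPM in Ctrl. Ass1, which consumes aspartate, rose by 0.99 (SE 0.22, edgeR adjusted p = 0.0361), with 295 and 474 CPM in cKO, against 188, 185 and 207 CPM in Ctrl. The transporter gene Slc38a2 was at 0.50 (SE 0.14, edgeR adjusted p = 0.0628). Both called genes encode enzymes that consume aspartate, which purine synthesis also uses.

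**Figure D4:**
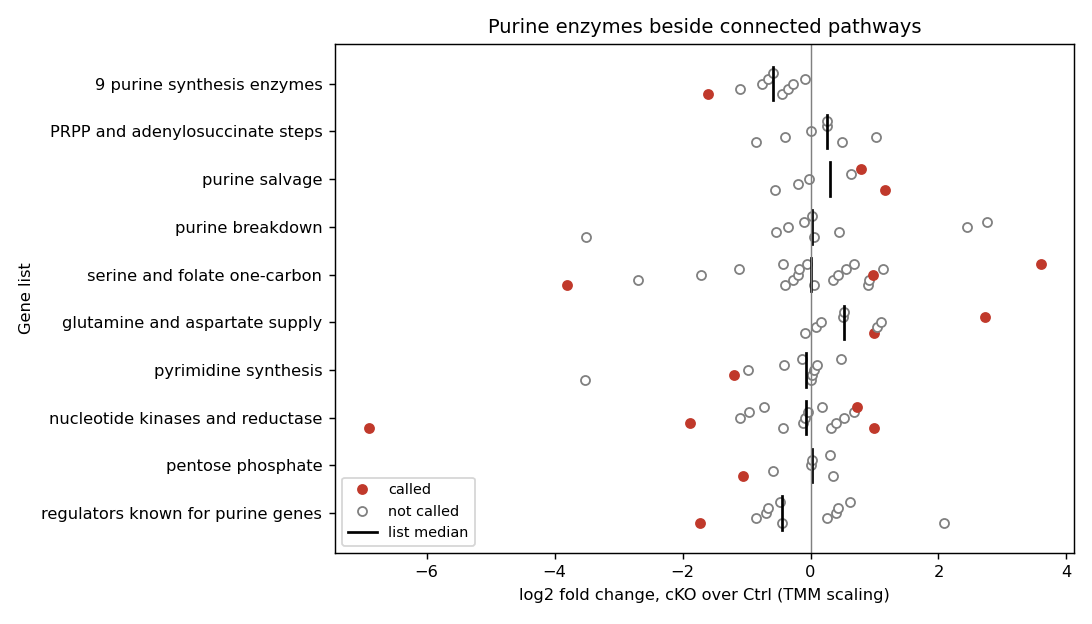
Log2 fold change of cKO over Ctrl (TMM scaling) for each tested gene of the 9 purine synthesis enzymes and of 9 connected lists; red points were called, open points were not, and a black bar is the list median. The purine enzymes have a median of −0.59 with 1 called gene, and the salvage list has 2 called genes, both higher.

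Downstream of the purines, the ribonucleotide reductase genes Rrm1 and Rrm2 were lower in cKO, while Rrm2b did not pass (−1.11, SE 0.43, edgeR adjusted p = 0.132). Rrm1, the large subunit, had 5.92 and 3.95 CPM in cKO, against 16.9, 16.1 and 22 CPM in Ctrl, and fell by 1.89 (SE 0.27, edgeR adjusted p = 0.0145). Rrm2, the subunit made in dividing cells, had 0 and 2 counts in cKO 1 and 2, against 99, 74 and 197 in Ctrl (edgeR adjusted p = 0.0112). It passed the filter through its Ctrl counts. The ratio of Ctrl over cKO was 139, with an exact 95% counting interval of 38.3 to 1160. These values stand beside the proliferation markers given above, of which 8 of 16 were called lower. The adenylate kinase genes Ak1 and Ak6 rose by 0.99 and 0.72 (SE 0.20 and 0.16, edgeR adjusted p = 0.0292 and 0.0394), and the other 12 of 16 genes of nucleotide kinases and reductase (median −0.06) did not pass, among them Nme1 (0.32, edgeR adjusted p = 0.19).

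In pyrimidine synthesis, the sister pathway, 1 of 10 tested genes (median −0.06) was lower. Umps, which makes UMP, had 18.3 and 13.3 CPM in cKO, against 33.6, 39.4 and 35.9 CPM in Ctrl, and fell by 1.20 (SE 0.19, edgeR adjusted p = 0.019). Cmpk1 was at 0.48 (edgeR adjusted p = 0.0981). Among 9 tested purine breakdown genes (median 0.02) edgeR called 0. An edgeR unadjusted p under 0.05 was found for 2, beside 3781 of all 11724 genes tested. DESeq2 called 1, beside 23.3% of all genes. Those named for their high CPM, Nt5c3b and Pnp, stood at −0.35 and 0.02 (edgeR adjusted p = 0.34 and 0.972). Of the KEGG genes outside the lists, Enpp1, an ectoenzyme that splits ATP to AMP and pyrophosphate, had 0 counts in both cKO libraries and 84, 90 and 153 in Ctrl, at least 40.3-fold lower in cKO against a floor of 3 counts per library (edgeR adjusted p = 0.00689). It passed the filter through its Ctrl counts.

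Of 11 tested regulators known for purine genes in mammalian cells (median −0.44), 1 was called. Mtor, the gene of a growth kinase, had 5.43 and 7.37 CPM in cKO, against 17.1, 20.8 and 25.9 CPM in Ctrl, and fell by 1.73 (SE 0.26, edgeR adjusted p = 0.0161). Atf4, a stress factor known to raise serine and folate genes, had 141 and 40.4 CPM in cKO 1 and 2, one above and the other below the 53.7 to 62.3 CPM of Ctrl, and did not pass (0.62, SE 0.47, edgeR adjusted p = 0.41). Mycn, of the MYC family that binds E-boxes, had 14.8 and 21.2 CPM in cKO, against 28.4, 23.1 and 21.9 CPM in Ctrl, and did not pass (−0.44, edgeR adjusted p = 0.225).

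The genes most like Paics across the 5 libraries were sought outside the 9 members, whose own differences from Paics are given below. Likeness was the root mean square difference of log2 CPM profiles, each centred on its own mean, over 4280 genes with a mean of at least 10 CPM. Habp4 (0.063), Rubcn (0.078), Osbpl11 (0.078), Trim26 (0.079) and Tigd2 (0.082) came closest. Habp4, for example, had 29.8 and 19.2 CPM in cKO, against 69.6, 84.7 and 79.0 CPM in Ctrl. Among the members, Impdh2 (0.55) and Ppat (0.57) were nearest to Paics and Atic (0.85) was farthest. Outside the members, the genes most like Impdh1 were Sptan1 (0.07), Gpr107 (0.097), Tmem72 (0.098), Arhgap31 (0.1) and Ap3d1 (0.1). Being matched to Impdh1, each of them was lowest in cKO 1. Sptan1, for example, had 91.8 and 178 CPM in cKO 1 and 2, against 174, 222 and 217 CPM in Ctrl. With 5 libraries, many genes share such a profile, and the likeness is a description.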

How the data were processed

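The authors deposited 1 table with expected (estimated) counts and FPKM values for 22183 genes in 5 libraries. The authors' expected counts are RSEM estimates per gene: RSEM is among the tools listed in the submitters' processing notes, with Trimmomatic 0.18.0 and the build GRCm39. No source used here states an aligner or whether strand was used. FPKM as deposited by the authors (length and depth scaled) served to compare levels between genes and as an alternative. A gene's counts not being whole (tolerance 0.001) marks reads shared with other genes.

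Expected counts were rounded. Genes were filtered with filterByExpr (minimum count 10, total 15), scaled by TMM and tested in edgeR 4.0.16 under R 4.3.3 by quasi-likelihood on the group alone, over all 5 libraries. Adjustment (Benjamini-Hochberg) ran over the 11724 tested genes, with calls made under 0.05; "rose", "fell", "higher" and "lower" name called genes unless values of libraries are compared. SE was taken from the F statistic. The fit was tested on simulated data. A count of 0 allows up to 3 counts, which is 0.112 to 0.146 CPM per library; floors and intervals cover counting error only. Pools of lenses are the replicates.

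The members and lists were chosen with earlier results of these data known. Named are all members, up to 6 called and the 2 most abundant tested genes of each list, the 4 leading called KEGG genes, the 5 genes most like Paics and Impdh1 (log2 of CPM + 0.5), and Yap1; 1 gene under this rule is not reported here. Alternatives were DESeq2 1.42.0, total counts, no filter, limma 3.58.1 on log2 FPKM with 1 or 0.1 added, no crystallins, a replicate block, and each library left out.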

Additional observations from a re-analysis of the deposited data

How the results depend on the processing

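Calls over all genes (1581) numbered 2730 with DESeq2, and 21 to 5161 with 1 library left out. Members called (1) were 2 with DESeq2 and 0 to 4 with 1 library left out, and called genes of the connected lists (14) were 23 and 0 to 41. Members whose cKO libraries all lay below Ctrl (7) were 2 with total counts and 2 by FPKM, alternatives chosen after seeing the data. They were 7 without Ctrl 1, 2 or 3, where the share over all genes was not counted. A count with a single cKO library is not comparable with these and is left out. The change of Paics kept its sign in every alternative run and ranged from −2.0 to −1.29 with 1 library left out. It missed the threshold without Ctrl 1, 2 or 3. Because Paics was chosen by this contrast, its passing or missing, here or with a replicate block, is no test. Adsl changed sign with total counts (0.13) and with log2 FPKM plus 1 (0.13) or plus 0.1 (0.14), and ranged from −0.23 to 0.03 with 1 library left out. Atic ranged from −1.15 to 0.12, Pnp from −0.30 to 0.28, Taldo1 from −0.07 to 0.13 and Atf4 from −0.56 to 1.26. Taldo1 was −0.01 with crystallins left out. The causes were not tested.

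The replicate numbers are shared between the groups, but nothing in the labels ties them to a litter or day. Deviations from the group means correlated at 0.111 across genes for the libraries numbered 1 and at −0.083 for those numbered 2. With a replicate block 175 genes, 0 members and 1 gene of the connected lists were called. Paics was at −1.63 and missed the threshold, Pnp at −0.05 and Taldo1 at −0.00. Depth limits the precision of the rare members, of which Pfas had 12 to 71 counts per library.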
